A study of Homo sapiens with 7 samples.

Results

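The TGF-beta, activin and BMP signalling genes described here are 46 genes chosen by name from the measured transcripts, out of 17217 genes that could be named. All 46 were measured, through 51 of the 24000 rows of the deposited table, and 4 of them (ACVR1B, BMP1, FST and ID1) had more than 1 row. They comprise 15 ligands, 12 receptors and co-receptors, 8 SMADs, 4 secreted antagonists, 2 latent TGF-beta binding proteins, the proteinase BMP1 and 4 ID target genes.

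The samples were wild-type Daoy cells, an established human medulloblastoma line, in MEM Richter's medium with serum and antibiotics and with no treatment. RNA was hybridised to 7 single-colour (Cy3) arrays, of which biological replicate 2 had 4 and biological replicate 1 had 3. Each biological replicate was run on a 4-plex slide of its own, so culture, extract and slide cannot be told apart. The single comparison open to these data is biological replicate 2 against biological replicate 1, and its p-values measure the spread between arrays of 1 replicate, not a condition.

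TGF-beta family ligands are secreted as dimers that bring together type II and type I receptor kinases. The type I receptor then phosphorylates receptor SMADs, SMAD2 and SMAD3 on the TGF-beta and activin branch and SMAD1, SMAD5 and SMAD9 on the BMP branch, which enter the nucleus with SMAD4. Latent TGF-beta is stored in the matrix by binding proteins, secreted antagonists trap BMPs or activins, and SMAD6 and SMAD7 inhibit the receptors. In the developing cerebellum, from which medulloblastoma arises, BMPs are known to promote differentiation of granule neuron progenitors.

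Values are log2 intensities, normalized so that every array had a median of 8.15. Background was set at 7.54, below which 95% of the 364 measured olfactory receptor genes lay, taken here as silent in these cells. The same percentile was 7.24 in replicate 2 and 7.79 in replicate 1. A gene was called between the replicates at an adjusted p under 0.05 (limma, Benjamini-Hochberg over all named genes). An intensity depends on the probes of its row, so the levels of different genes are not ranked against each other. Over all rows, Pearson's r was 0.985 to 0.994 within a replicate and 0.948 to 0.962 between the replicates.

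Of the 46 genes, 35 lay above background, and 60.6% of all named genes did. The 11 at or below it were the ligands INHBB, INHA, BMP2 and GDF5, the receptor ACVR2A, the inhibitory SMAD6 and SMAD7, the antagonists NOG, CHRD and FST, and ID3. Between the replicates 25 of the 46 were called and 49.8% of all named genes were. With the array number as a block, 33 of the 46 were called, and 54.6% of all named genes were. Array 3 exists in replicate 2 alone and adds nothing to a block difference, which rests on arrays 1, 2 and 4 of each replicate. No array overlap between the replicates was seen for 25 of the 46, and for 52.4% of all named genes, so a lack of overlap is common on these arrays. Without the block 16 were higher in replicate 2, where 25.5% of all named genes were, and 9 were lower, where 24.2% were. The median difference of the 46 was 0.20 on the log2 scale, and that of all named genes was -0.01. These are bulk samples, in which fewer cells of a kind and less RNA per cell cannot be told apart. A called difference of at least 1 occurred in 8 members, 6 higher (GDF15, GREM1, ID1, INHBA, ENG and NOG) and 2 lower (BMP6 and SMAD1), beside 4.97% of all named genes higher and 4% lower.

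**Figure D1:**
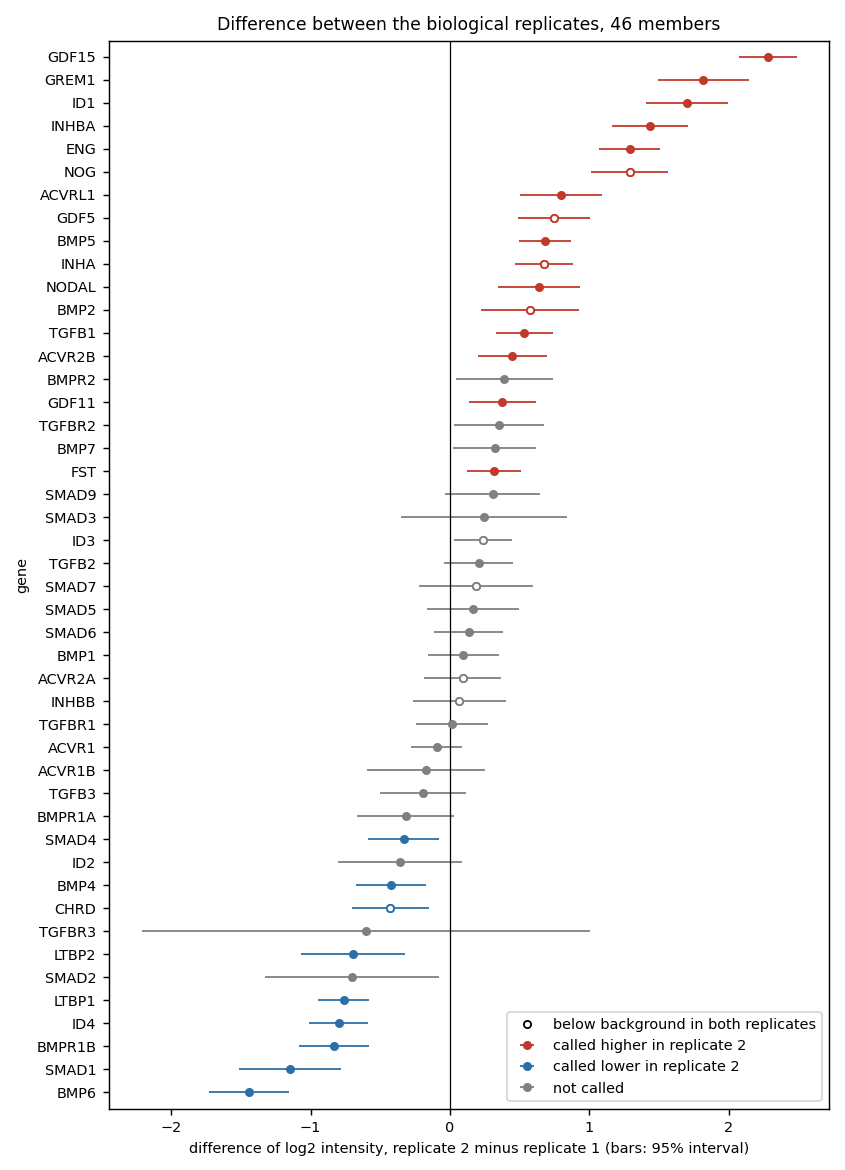
Difference of log2 intensity, replicate 2 minus replicate 1, for the 46 genes in order of size, with 95% intervals from limma. Open points mark genes below each replicate's own background in both, and the widest interval is that of TGFBR3, from -2.21 to 1.00, which holds 1 array far below the others.

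The 3 members above background with the largest rises were GDF15, GREM1 and ID1, and the largest fall was that of BMP6. Their promoters are shown with that of ID4, the ID gene that moved the opposite way to ID1, so that the letters known from SMAD binding can be looked for. Each is the 250 bases before the most upstream start listed by RefSeq (GRCh38.p14), all on the + strand. They are chr19:18385908-18386157 for GDF15, chr15:32717754-32718003 for GREM1, chr20:31605039-31605288 for ID1, chr6:7725849-7726098 for BMP6 and chr6:19837120-19837369 for ID4. Capitals mark GGCGCC, a core of BMP-responsive elements, CAGAC, a SMAD-binding sequence, or GTCTG on the other strand, and TATAA or TTATA of the TATA box.
GDF15: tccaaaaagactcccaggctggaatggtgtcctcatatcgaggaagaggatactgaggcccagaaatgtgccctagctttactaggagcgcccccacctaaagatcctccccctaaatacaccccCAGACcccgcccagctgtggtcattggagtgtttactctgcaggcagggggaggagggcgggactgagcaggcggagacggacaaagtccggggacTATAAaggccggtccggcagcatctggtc
GREM1: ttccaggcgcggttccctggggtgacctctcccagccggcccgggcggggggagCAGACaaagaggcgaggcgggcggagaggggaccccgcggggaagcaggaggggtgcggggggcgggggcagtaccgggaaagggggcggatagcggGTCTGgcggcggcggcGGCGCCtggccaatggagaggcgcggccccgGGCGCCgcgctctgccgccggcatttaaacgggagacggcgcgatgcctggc
ID1: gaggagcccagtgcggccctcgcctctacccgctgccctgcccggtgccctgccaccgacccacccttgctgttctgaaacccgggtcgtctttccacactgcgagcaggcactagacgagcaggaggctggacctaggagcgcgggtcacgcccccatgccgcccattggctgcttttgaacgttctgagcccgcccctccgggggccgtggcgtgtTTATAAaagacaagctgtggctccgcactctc
BMP6: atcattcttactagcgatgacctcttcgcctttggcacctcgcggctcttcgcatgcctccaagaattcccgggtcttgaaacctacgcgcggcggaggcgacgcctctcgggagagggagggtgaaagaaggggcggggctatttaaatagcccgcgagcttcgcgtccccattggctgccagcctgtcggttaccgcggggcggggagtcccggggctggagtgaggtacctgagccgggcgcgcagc
ID4: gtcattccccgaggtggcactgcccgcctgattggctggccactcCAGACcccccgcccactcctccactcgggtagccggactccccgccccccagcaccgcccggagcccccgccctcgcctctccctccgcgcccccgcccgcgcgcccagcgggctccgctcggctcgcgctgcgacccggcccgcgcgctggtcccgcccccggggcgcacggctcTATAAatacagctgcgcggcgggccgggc

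The GREM1 window was the only one of the 5 with GGCGCC, at 2 places that begin 83 and 52 bases before the start, and it held CAGAC or its complement at 2 further places. GDF15 and ID4 each held CAGAC at 1 place, and a TATAA that begins 29 bases before the start. ID1 held TTATAA, read on both strands, from 32 bases before the start. The BMP6 window held none of the 3. Among 35116 promoter windows of the same length, 16.4% held GGCGCC, 38% held CAGAC or its complement and 18.9% held TATAA or its complement. These letters are a description of the windows, and no binding was measured. Bases outside the windows were not searched. A window without these letters, such as that of ID1 for GGCGCC, therefore does not show that its gene lacks such an element.

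Among the TGF-beta ligands, TGFB1 was higher in replicate 2, and TGFB2 and TGFB3 did not pass the test. All 3 bind the same receptor pair and lay above background on every array. TGFB1 stood at 13.57, 13.79, 13.78 and 13.69 on the arrays of replicate 2, against 13.12, 13.16 and 13.24 in replicate 1. The replicates did not overlap, and TGFB1 was 1.45-fold higher, by 0.53 ± 0.09 (SE; adjusted p = 0.00116, limma). TGFB2 averaged 12.07 ± 0.10 in replicate 2 (SD, 4 arrays) and 11.87 ± 0.19 in replicate 1 (SD, 3 arrays), with a 95% interval of the difference from -0.04 to 0.45. TGFB3 averaged 10.67 ± 0.25 in replicate 2 and 10.87 ± 0.07 in replicate 1, with an interval from -0.50 to 0.12.

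Of the activin and inhibin subunit genes chosen here, only INHBA, the beta A subunit that forms activin A, was above background. INHBE, a beta subunit from a further list, was above it too. INHBA was higher in replicate 2. It stood at 11.60, 11.88, 11.55 and 11.56 in replicate 2, against 10.06, 10.40 and 10.17 in replicate 1. Every array of replicate 2 lay above every array of replicate 1, by a mean of 1.43 ± 0.12 (SE), which is 2.70-fold (adjusted p = 2.4e-05, limma). NODAL, an embryonic ligand that uses activin receptors, lay close to background, at 8.74, 8.60, 8.55 and 8.23 in replicate 2 and at 7.80, 8.05 and 7.83 in replicate 1. It was called 0.64 ± 0.13 (SE) higher (adjusted p = 0.00317, limma). The beta B subunit INHBB averaged 5.96 ± 0.28 in replicate 2 and 5.89 ± 0.08 in replicate 1. INHA, the alpha subunit of the inhibins, was below background in both replicates, at 6.74 ± 0.11 and 6.07 ± 0.06 in replicates 2 and 1, and the test called it higher (adjusted p = 0.000325, limma).

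The BMP and GDF ligands moved both ways. Of 8, 5 were higher in replicate 2, 2 were lower and BMP7 did not pass, beside 25.5% of all named genes higher and 24.2% lower. Of the 5 higher, BMP2 and GDF5 lay below background in both replicates. GDF15, a stress-induced ligand that acts through the receptor GFRAL, had the largest difference of the 46 genes. It stood at 9.96, 10.13, 10.19 and 10.18 in replicate 2, against 7.84, 7.77 and 7.89 in replicate 1. In replicate 1 it was thus next to that replicate's background of 7.79, and it was 4.85-fold higher in replicate 2, by 2.28 ± 0.09 (SE, limma, adjusted p = 1.54e-06). BMP5 averaged 10.51 ± 0.07 in replicate 2 and 9.83 ± 0.02 in replicate 1, a 1.60-fold difference (adjusted p = 0.000172, limma). GDF11, a ligand close to myostatin that patterns the embryo, averaged 11.65 ± 0.11 in replicate 2 and 11.27 ± 0.17 in replicate 1 (adjusted p = 0.0165, limma). The GDF11 call was lost without array 4 of replicate 1 (adjusted p = 0.0659).

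BMP6 was lower in replicate 2 than in replicate 1. It stood at 7.99, 7.68, 7.88 and 7.87 in replicate 2, against 9.56, 9.09 and 9.24 in replicate 1. The arrays did not overlap, and BMP6 was 2.72-fold lower, by -1.44 ± 0.13 (SE; adjusted p = 3.02e-05, limma). BMP4, a ligand of dorsal neural patterning, averaged 9.87 ± 0.16 in replicate 2 and 10.29 ± 0.11 in replicate 1, 1.34-fold lower (adjusted p = 0.0114, limma). BMP7 averaged 8.66 ± 0.13 in replicate 2 and 8.34 ± 0.26 in replicate 1 and did not pass (adjusted p = 0.0702, limma), but it did in a fit blocked on the array number (adjusted p = 0.0261). BMP2 and GDF5, a ligand of joint formation, were below background in both replicates. BMP2 averaged 6.84 ± 0.15 in replicate 2 and 6.27 ± 0.34 in replicate 1, and GDF5 averaged 7.02 ± 0.14 and 6.27 ± 0.17 in replicates 2 and 1. Both were called higher (limma, adjusted p = 0.0135 and 0.000633), with no fold given at such intensities, and the BMP2 call was lost without array 1 of replicate 1 (adjusted p = 0.0548).

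The latent TGF-beta binding proteins chosen here, LTBP1 and LTBP2, were lower in replicate 2, but their family did not move together. LTBP4 averaged 13.88 in replicate 2 and 13.52 in replicate 1 and was called higher (0.36, adjusted p = 0.0431, limma). LTBP3 did not pass (0.11, adjusted p = 0.401, limma). LTBP1, which holds latent TGF-beta in the extracellular matrix, stood at 13.31, 13.31, 13.33 and 13.33 in replicate 2, against 14.14, 14.09 and 14.01 in replicate 1, with no overlap. It was 1.70-fold lower, by -0.76 ± 0.08 (SE, limma, adjusted p = 7.71e-05). LTBP2, which is known as a matrix protein and does not bind TGF-beta itself, stood at 9.78, 9.57, 9.83 and 9.87 in replicate 2 and at 10.67, 10.02 and 10.68 in replicate 1 (difference -0.70 ± 0.17, SE, adjusted p = 0.00705, limma). BMP1 is no ligand but a metalloproteinase that trims procollagen and cleaves chordin and LTBP1. Its 2 rows disagreed. The brighter was 0.34 higher in replicate 2 (12.12 ± 0.09 against 11.79 ± 0.11, adjusted p = 0.0188, limma), and the other averaged 10.0 ± 0.05 in replicate 2 and 10.14 ± 0.35 in replicate 1 (adjusted p = 0.456). The mean of both rows did not pass (adjusted p = 0.514).

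**Figure D2:**
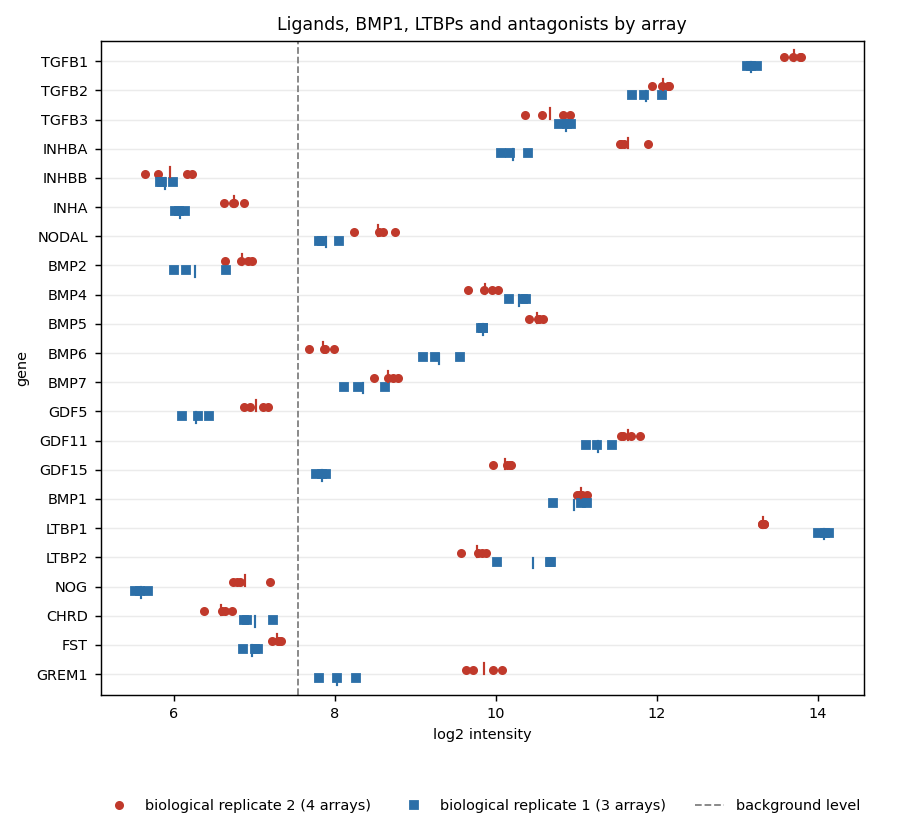
Log2 intensity of the ligands, BMP1, the latent TGF-beta binding proteins and the antagonists on each array, with replicate 2 above replicate 1 for each gene, short lines at the replicate means and a dashed line at the background of 7.54. GDF15, GREM1 and INHBA sit to the right in replicate 2, and BMP6 and LTBP1 to the left.

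Of the 4 secreted antagonists, GREM1 was above background as a gene, and FST in 1 of its 2 rows. GREM1 was higher in replicate 2. GREM1 (gremlin) binds BMP2, BMP4 and BMP7. It stood at 9.63, 9.96, 10.08 and 9.72 in replicate 2, against 7.80, 8.27 and 8.02 in replicate 1. The replicates did not overlap, and GREM1 was 3.52-fold higher, by 1.82 ± 0.14 (SE; adjusted p = 1.88e-05, limma). Noggin (NOG), another BMP trap, stood at 7.19, 6.82, 6.73 and 6.78 in replicate 2 and at 5.52, 5.58 and 5.68 in replicate 1, all below background. It was called higher (adjusted p = 4.26e-05, limma), with no fold given. Chordin (CHRD) was called lower, also below background, at 6.58 ± 0.14 in replicate 2 and 7.01 ± 0.20 in replicate 1 (adjusted p = 0.0163, limma), a call lost without array 2 of replicate 1 (adjusted p = 0.0516). Follistatin (FST), which traps activins, lay above background in its brighter row, at 8.50 ± 0.05 in replicate 2 and 8.04 ± 0.18 in replicate 1 (1.37-fold, adjusted p = 0.00628, limma). Its other row was below background, at 6.07 ± 0.08 in replicate 2 and 5.90 ± 0.06 in replicate 1 (adjusted p = 0.133).

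Of 12 receptors and co-receptors, 11 were above background, 3 were called higher in replicate 2 (ENG, ACVRL1 and ACVR2B), 1 was called lower (BMPR1B) and 8 did not pass. Over all named genes 60.6% were above background, 25.5% were called higher and 24.2% lower. Endoglin (ENG), a co-receptor that presents BMP9 and TGF-beta, stood at 11.72, 11.68, 11.56 and 11.57 in replicate 2, against 10.34, 10.48 and 10.21 in replicate 1. It was higher on every array of replicate 2, by 1.29 ± 0.10 (SE) or 2.44-fold (limma, adjusted p = 1.48e-05). ACVRL1 (ALK1), the type I receptor that works with endoglin in blood vessels, stood at 8.85, 9.21, 9.01 and 8.75 in replicate 2 and at 8.23, 8.27 and 7.97 in replicate 1. It was 1.74-fold higher (adjusted p = 0.000899, limma), also with no overlap. The activin type II receptor ACVR2B averaged 10.22 ± 0.09 in replicate 2 and 9.77 ± 0.20 in replicate 1 (1.36-fold, adjusted p = 0.00826, limma).

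ENG and ACVRL1 are best known from endothelium, so endothelial markers were read beside them. Of 6 markers, 2 were above background (PECAM1 and TEK), while CDH5, VWF, KDR and CLDN5 were below it. PECAM1 averaged 7.80 ± 0.07 in replicate 2 and 7.44 ± 0.09 in replicate 1, where it was below that replicate's own background of 7.79. PECAM1 and CLDN5 were called higher (limma, adjusted p = 0.00738 and 0.00199). The mean over the 6 markers ranged over arrays from 6.88 to 6.9955 in replicate 2 and from 6.57 to 6.79 in replicate 1. The part of such transcripts in the ENG difference was not tested.

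The BMP type I receptor BMPR1B was lower in replicate 2, at 9.42, 9.32, 9.37 and 9.39 there, against 10.20, 9.98 and 10.43 in replicate 1. The arrays did not overlap, and it was 1.78-fold lower, by -0.83 ± 0.11 (SE, limma, adjusted p = 0.000306). Its relative BMPR1A averaged 10.17 ± 0.13 in replicate 2 and 10.49 ± 0.34 in replicate 1 and did not pass (adjusted p = 0.116, limma), but it did in the block fit (-0.32, adjusted p = 0.0399). ACVR1, the type I receptor of BMP6 and BMP7, averaged 10.51 ± 0.04 in replicate 2 and 10.61 ± 0.06 in replicate 1 (interval of the difference -0.28 to 0.09). TGFBR1, the type I receptor of TGF-beta, averaged 8.09 ± 0.09 in replicate 2 and 8.07 ± 0.21 in replicate 1 (interval -0.24 to 0.27). Its partner TGFBR2 averaged 10.16 ± 0.19 in replicate 2 and 9.81 ± 0.24 in replicate 1 and did not pass (adjusted p = 0.0688, limma). In the block fit TGFBR2 was called higher (0.38, adjusted p = 0.0084). The same held for the BMP type II receptor BMPR2, at 8.35 ± 0.19 in replicate 2 and 7.96 ± 0.30 in replicate 1 (adjusted p = 0.0627, and 0.0265 with the block, limma). ACVR2A was below background, at 7.03 ± 0.17 in replicate 2 and 6.94 ± 0.16 in replicate 1.

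Single arrays set the values of ACVR1B and TGFBR3. TGFBR3 (betaglycan), a co-receptor for TGF-beta2 and inhibin, stood at 8.52, 8.73, 5.42 and 8.57 in replicate 2 and at 8.01, 8.80 and 8.44 in replicate 1. Array 3 of replicate 2 was far below the other 6 arrays. The difference was -0.60 ± 0.71 (SE, adjusted p = 0.513, limma), and without that array it was 0.19 (adjusted p = 0.438). The activin receptor ACVR1B was read by 3 rows. On its brightest row array 2 of replicate 2 stood at 7.94, where the other arrays of replicate 2 were at 10.10, 9.94 and 9.95 and those of replicate 1 at 10.19, 10.25 and 10.10. A second row was also lowest there among the arrays of replicate 2, at 8.90, where the others were at 9.36, 9.52 and 9.47. The third was highest there, at 8.17. The gene did not pass (adjusted p = 0.48, limma).

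The SMADs of the BMP branch did not move as a group. SMAD1 was lower in replicate 2, at 9.21, 9.13, 8.79 and 8.84 there, against 10.06, 10.48 and 9.88 in replicate 1. With no overlap, it was 2.22-fold lower, by -1.15 ± 0.16 (SE, limma, adjusted p = 0.000389). SMAD5, which carries the same signal, averaged 9.37 ± 0.12 in replicate 2 and 9.21 ± 0.32 in replicate 1 (interval of the difference -0.17 to 0.49, adjusted p = 0.383, limma). SMAD9 averaged 8.45 ± 0.24 in replicate 2 and 8.14 ± 0.22 in replicate 1 and passed in the block fit (adjusted p = 0.125, and 0.0125 with the block, limma). The shared partner SMAD4 averaged 10.21 ± 0.10 in replicate 2 and 10.54 ± 0.20 in replicate 1, 1.26-fold lower (adjusted p = 0.0341, limma). The SMAD4 call was lost without array 1 or 4 of replicate 1 (adjusted p = 0.125 and 0.104), and without array 2, 3 or 4 of replicate 2 (adjusted p = 0.0743, 0.0734 and 0.0517).

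SMAD2 and SMAD3, which carry TGF-beta and activin signals, were lowest on array 2 in both replicates. SMAD2 stood at 9.73, 8.69, 9.69 and 9.67 on arrays 1 to 4 of replicate 2, and at 10.27, 9.68 and 10.50 on arrays 1, 2 and 4 of replicate 1. The difference of -0.70 ± 0.28 (SE) did not pass (adjusted p = 0.0611, limma), and in the block fit it was -0.78 and passed (adjusted p = 0.0014). Without array 2 of replicate 2 it was -0.45 (adjusted p = 0.0785), and without array 2 of replicate 1 it was -0.94 (adjusted p = 0.0265). SMAD3 stood at 9.13, 8.83, 9.60 and 9.62 in replicate 2, and at 9.10, 8.50 and 9.55 in replicate 1. The difference was 0.24 ± 0.26 (SE, adjusted p = 0.475, limma). Of the 46 genes, 30 had the same lowest array among the 3 array numbers that both replicates share, and for 12 of them it was array 2. The share over all named genes was not counted, so these counts are no trait of the 46. Over all rows the deviations of same-numbered arrays from their replicate means correlated at 0.21 to 0.40, and those of other pairs at -0.38 to 0.20. What the array number stands for is not given in the sources used here.

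**Figure D3:**
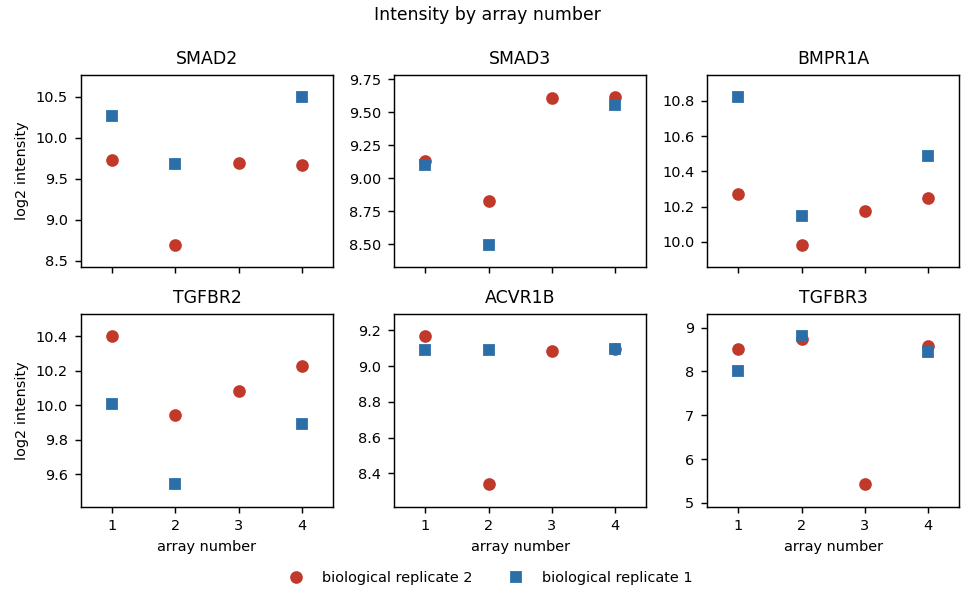
Log2 intensity against array number for 6 genes, with a y axis of its own in each panel that does not start at 0. SMAD2, SMAD3, BMPR1A and TGFBR2 are lowest on array 2 in both replicates, while ACVR1B is low on array 2 and TGFBR3 on array 3 of replicate 2 alone.

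The inhibitory SMADs, which are induced by the pathway and feed back on its receptors, were at background and did not pass. SMAD6, the inhibitor of BMP signals, averaged 7.54 ± 0.11 in replicate 2 and 7.40 ± 0.17 in replicate 1 (interval of the difference -0.11 to 0.38). SMAD7, which acts on both branches, averaged 7.17 ± 0.31 in replicate 2 and 6.99 ± 0.26 in replicate 1 (interval -0.23 to 0.60). A value at background does not show that a transcript was missing.

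The ID genes, which encode helix-loop-helix proteins that block basic helix-loop-helix factors and are textbook targets of BMP signals, did not move together. ID1 was higher in replicate 2, at 11.12, 11.23, 11.08 and 10.93 there, against 9.49, 9.57 and 9.10 in replicate 1. Every array of replicate 2 lay above every array of replicate 1, by 1.70 ± 0.13 (SE) or 3.26-fold (limma, adjusted p = 1.59e-05). Its 2 rows gave 1.87 and 1.53. ID4 was lower, at 7.85, 7.63, 7.61 and 7.61 in replicate 2, against 8.44, 8.54 and 8.44 in replicate 1, with no overlap. It was 1.74-fold lower, by -0.80 ± 0.09 (SE; adjusted p = 0.000141, limma). ID2 averaged 9.17 ± 0.32 in replicate 2 and 9.53 ± 0.32 in replicate 1 and passed as lower in the block fit (adjusted p = 0.16, and 0.0136 with the block, limma). ID3 was below background on all arrays, at 5.92 ± 0.11 in replicate 2 and 5.68 ± 0.05 in replicate 1 (adjusted p = 0.0582, and 0.039 with the block, limma).

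**Figure D4:**
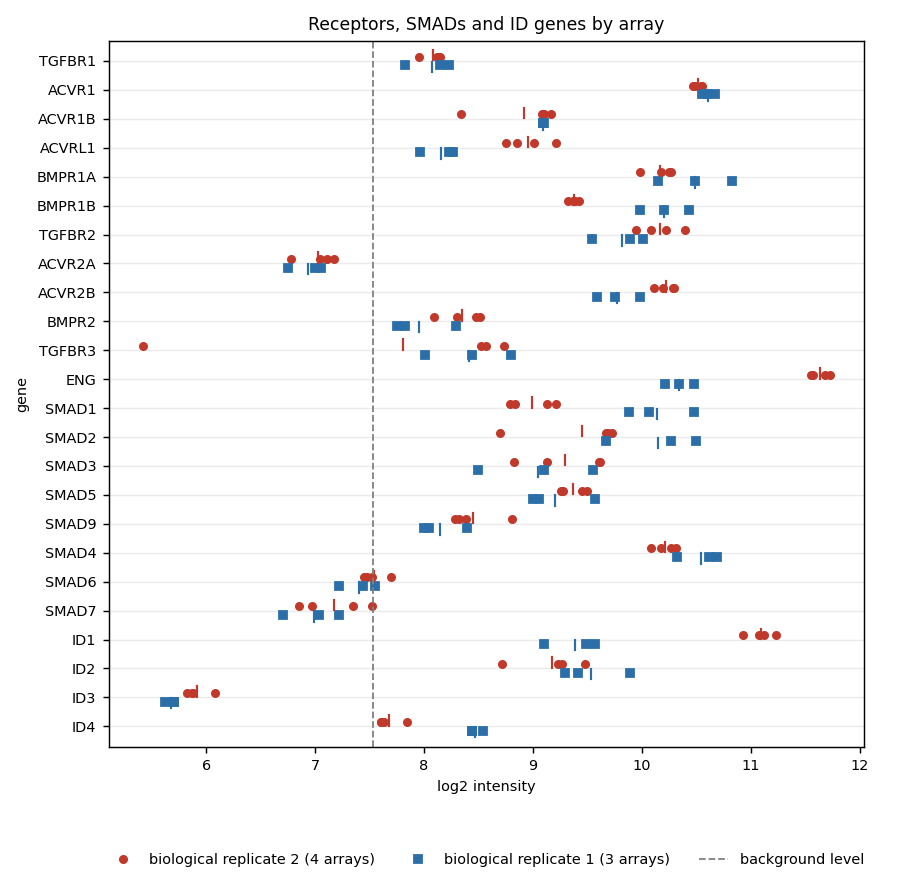
Log2 intensity of the receptors, SMADs and ID genes on each array, with replicate 2 above replicate 1 for each gene, short lines at the replicate means and a dashed line at the background of 7.54. ENG and ID1 sit to the right in replicate 2, SMAD1, BMPR1B and ID4 to the left, and 1 array of TGFBR3 lies at 5.42.

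Genes of the pathway beyond the 46 were read from 7 further lists, to be set beside the 25.5% of all named genes called higher, the 24.2% called lower and the 60.6% above background. Among 18 other ligands 3 were above background, 4 were called higher and 3 lower, with a median difference of -0.07. Of these calls only that of INHBE was on a gene above background in both replicates. INHBE, an inhibin beta subunit known from liver, averaged 9.21 in replicate 2 and 8.67 in replicate 1 (1.45-fold, a difference of 0.54, adjusted p = 0.0245, limma). The INHBE call was lost without array 1 of replicate 1 (0.35, adjusted p = 0.0897) and without array 3 or 4 of replicate 2 (adjusted p = 0.0565 and 0.056). GDF7 lay below background in replicate 1 and was at least 1.03-fold higher in replicate 2. Of 6 measured other receptors and co-receptors, 1 (BAMBI, a decoy receptor) was above background and did not pass. AMHR2 was called higher and RGMB lower, both below background. These 3 are named after their values were seen. Of 13 other extracellular antagonists, 5 were called higher and 3 lower. All 3 lower calls and part of the higher ones were on genes below background in both replicates. Decorin (DCN), a matrix proteoglycan that binds TGF-beta, was below background in replicate 1 and at least 1.80-fold higher in replicate 2 (8.64 against 7.27, adjusted p = 6.54e-06, limma). CHRDL1, a chordin relative that binds BMPs, averaged 7.68 in replicate 2 and 6.81 in replicate 1 and was called higher (adjusted p = 0.000951), with no fold given since its replicate 2 mean lay under the background of replicate 1.

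Of 13 genes of latency and activation, 4 were called higher and 3 lower, with a median difference of -0.0039. The integrin subunit ITGAV, part of the receptors that release TGF-beta from its latent complex, stood at 11.25, 11.25, 11.33 and 11.41 in replicate 2, against 10.14, 10.05 and 10.05 in replicate 1 (2.35-fold, adjusted p = 1.01e-05, limma). Thrombospondin 1 (THBS1), another activator of latent TGF-beta, stood at 11.59, 11.45, 11.51 and 11.55 in replicate 2, against 12.24, 12.65 and 12.45 in replicate 1 (1.90-fold lower, adjusted p = 0.000139, limma). The convertase FURIN, which cuts TGF-beta precursors, was called lower, with a difference of -0.34 (adjusted p = 0.0462, limma). The FURIN call was lost in the block fit (adjusted p = 0.0724), and when any single array other than array 4 of replicate 2 was left out (adjusted p = 0.0574 to 0.119). NRROS, which holds latent TGF-beta on cells, was below background in replicate 1 and at least 1.03-fold higher in replicate 2.

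Of 16 SMAD co-factors and turnover genes, 3 were called higher and 4 lower. SKIL (SnoN), a repressor of SMAD activity that TGF-beta also induces, stood at 11.44, 11.29, 11.46 and 11.48 in replicate 2, against 10.24, 10.05 and 10.19 in replicate 1 (2.40-fold, adjusted p = 1.24e-05, limma). FOXH1, a DNA-binding partner of SMAD2, was below background in replicate 1 and at least 1.35-fold higher in replicate 2. The ubiquitin ligases NEDD4L and SMURF1, which act on SMADs and their receptors, were 2.89-fold and 1.53-fold lower (limma, adjusted p = 4.65e-05 and 0.000757). NEDD4L averaged 7.41 in replicate 2 and 8.94 in replicate 1, and SMURF1 averaged 11.70 in replicate 2 and 12.31 in replicate 1.

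Of 15 TGF-beta target genes, 14 were above background, 7 were called higher and 1 lower, with a median difference of 0.24, where that of all named genes was -0.01. This list shares SKIL, TGIF1 and LTBP3 with other lists, and the BMP targets share BAMBI. JUNB, an AP-1 subunit, stood at 12.26, 12.47, 12.37 and 12.39 in replicate 2, against 10.88, 10.81 and 10.80 in replicate 1 (2.92-fold, adjusted p = 3.75e-06, limma). The lower call was that of fibronectin (FN1), at -0.40 as the mean of its rows (adjusted p = 0.0184, limma), and its brightest row gave -0.02 (adjusted p = 0.958). The FN1 call was also lost without array 1 or 4 of replicate 1 (adjusted p = 0.0515 and 0.0563). Of 12 BMP target genes, which include SMAD6 and SMAD7 of the 46, 5 were called higher and 1 lower, with a median of 0.20. The 10 without these held the same calls, with a median of 0.30. ATOH8, a basic helix-loop-helix factor, averaged 9.20 ± 0.10 in replicate 2 and 8.23 ± 0.06 in replicate 1 (1.96-fold, adjusted p = 4.16e-05, limma). HEY1, also a Notch target, was 1.58-fold higher (adjusted p = 0.0137, limma), and that call was lost without array 4 of replicate 1 (adjusted p = 0.0545). GATA3 was at least 1.83-fold lower in replicate 2, where it lay below background.

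**Figure D5:**
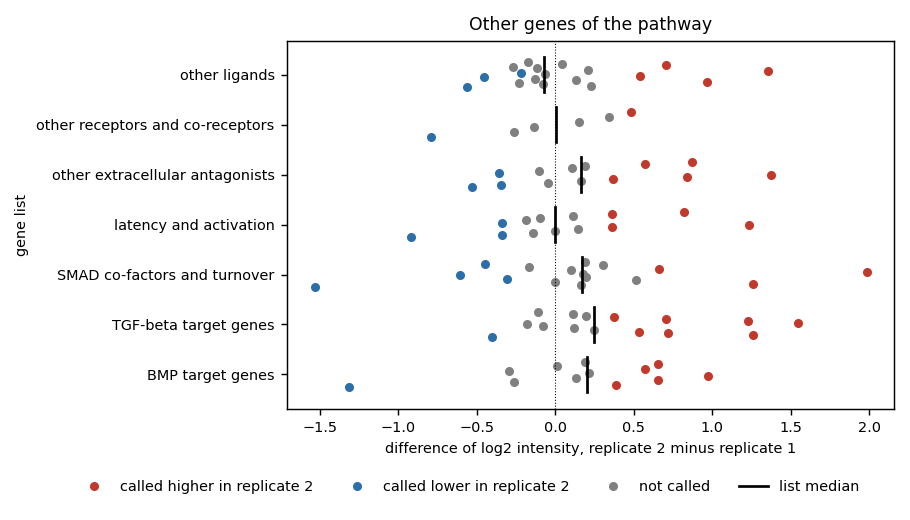
Difference of log2 intensity, replicate 2 minus replicate 1, for each measured gene of 7 further pathway lists, with the list median as a vertical line (points are spread vertically for legibility). List medians run from -0.07 for other ligands to 0.24 for TGF-beta target genes, and every list holds calls in both directions.

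Markers of cell types were read as a check of the label. All 8 mesenchymal markers and 0 of 6 leukocyte markers were above background. Neuronal markers had 3 of 5 above it, astrocyte markers 2 of 4, epithelial markers 3 of 6 and hedgehog medulloblastoma markers 3 of 6 (PTCH1, GLI2 and SFRP1), while GLI1, ATOH1 and HHIP were below it. Some marker lists differed between the replicates. The mean of the epithelial markers was 8.42 to 8.50 on the arrays of replicate 2 and 8.05 to 8.10 on those of replicate 1. Of the 6, KRT19 and CLDN4 were called higher and EPCAM lower, with KRT19 at 7.73 ± 0.19 in replicate 2 and 5.77 ± 0.08 in replicate 1. KRT19 had the largest difference of the list (1.95), and its replicate 2 mean lay under the replicate 1 background of 7.79. CLDN4 was below background in replicate 1, and EPCAM in both replicates. KRT8 (-0.06), KRT18 (0.18) and CDH1 (0.06) did not pass, so the list mean does not show a rise of the list as a whole. The mean of the mesenchymal markers was 12.04 to 12.18 in replicate 2 and 12.28 to 12.30 in replicate 1, with THY1 called higher (0.93) and TAGLN (-1.08), COL3A1 (-0.73) and COL1A2 (-0.45) called lower (limma). The part of these moves in the differences of the 46 genes was not tested.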

How the data were processed

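The authors deposited 1 table of log2 intensities for 7 arrays, per the labels' protocols from Cy3-labelled total RNA, with RMA and limma named in the submitters' processing notes and no version given. The base of the logarithm was taken to be 2 by RMA's convention, from values between 5.25 and 15.46. The ranked values of any pair of arrays differed by at most 0.002, as quantile normalization leaves them. Probe values and detection calls were not used here. Precision is limited by there being only 7 arrays. They come from 2 biological replicates, 1 on each side of the comparison, and more arrays of the same replicates would not change that.

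Rows were named through RefSeq accessions (GRCh38.p14), with 19125 of 24000 rows matching 1 symbol and 4875 none. Rows of a gene were averaged (1464 genes). Replicate 2 minus replicate 1 was fitted with limma 3.58.1 (R 4.3.3), lmFit and eBayes, with Benjamini-Hochberg adjustment over 17217 genes. The fit was run on simulated data with independent noise and few changed genes. That setting lacks the shared deviations of same-numbered arrays, so it is no test of the calls made here. A gene below a replicate's own background entered a fold as that background, written "at least". Same-numbered arrays deviated together (correlations 0.21, 0.35 and 0.40 for arrays 1, 2 and 4). Pairs of other numbers ran from -0.38 to 0.20, the highest being array 3 of replicate 2 with array 4 of replicate 1. The array number was taken to pair arrays by this check, made on these same data, and not by the labels. Its block fit stands beside results it changes. For 4 against 3 arrays an exact two-sided permutation test cannot go below p = 0.0571, so none was used.

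All 46 members are named. From each further list the 2 largest called differences in each direction were named, if above background in at least 1 replicate. Any marker gene could be named. LTBP3 and LTBP4 were named outside this rule, beside LTBP1 and LTBP2, and no alternative fits are given for them. The members and lists were chosen with earlier results of these data known. TDGF1 and RBFOX3 matched no row. Promoters of BMP1, BMP2, BMP7, ACVRL1 and NOG had no entry in the promoter table.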

Additional observations from a re-analysis of the deposited data

Results flagged for a closer look

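Dixon's 95% limit (a gap of over 0.829 of the range) was applied to the 4 arrays of replicate 2. For 6 of 46 members, and 1 of 17 genes named by rule from the further lists, 1 array stood apart by more. Chance flags about 1 gene in 20 by this limit. The share flagged over all named genes was not counted, so these counts cannot show an excess among the 46. TGFBR3 lay at 5.42 on array 3, where the others were between 8.52 and 8.73. SMAD2 lay at 8.69 on array 2, where the others were between 9.67 and 9.73. ACVR1B lay at 8.34 on array 2, where the others were between 9.09 and 9.17. INHBA lay at 11.88 on array 2, above the others at 11.55 to 11.60. ID4 lay at 7.85 on array 1, above the others at 7.61 to 7.63. TGFBR1 lay at 7.96 on array 1 and INHBE at 8.89 on array 1, each below the others, at 8.12 to 8.14 and at 9.29 to 9.34. The gaps of INHBA, ID4 and TGFBR1 are small beside those of TGFBR3, SMAD2 and ACVR1B. What set these arrays apart was not tested.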

How the results depend on the processing

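Of 19 called members run in 12 alternative fits, 17 kept their call and direction in each. The other 6 (BMP2, CHRD, FST, GDF5, INHA and NOG) were not in the fit without dim genes, and 4 of them kept theirs in the 11 others. BMP2, GDF11, SMAD4 and CHRD lost theirs when single arrays were left out. At least 1 alternative called 11 further members. The block called 8 of these (BMP7, BMPR1A, TGFBR2, BMPR2, SMAD2, SMAD9, ID2 and ID3). TGFB2 was called without array 2 of replicate 1 (0.30, adjusted p = 0.0415), SMAD5 without array 1 of replicate 1 (0.35, adjusted p = 0.0375) and BMP1 on its brightest row (0.34, adjusted p = 0.0184). Requiring a difference of at least 1 as well left 6 members higher, 2 lower and 1545 of all genes called. Leaving out each array in turn gave 15 to 18 members higher, 8 to 10 lower, 7331 to 8130 genes called and 35 members above background. With the array number as the replicate block 21 members were higher, 12 lower and 9392 genes called, with no member's call lost. TGFBR3 turned to 0.19 in the block fit, as it did without array 3 of replicate 2. That array adds nothing to a block difference. With genes below background removed 11 members were higher and 8 lower, out of 36 tested. Members above background numbered 29 at the 99th percentile and 36 with the brightest row of each gene. Differences that did not pass turned sign when 1 array was left out: INHBB ranged from -0.0210 to 0.17, BMP1 from -0.0314 to 0.18, TGFBR1 from -0.10 to 0.10, ACVR1B from -0.25 to 0.0240, ACVR2A from -0.0008 to 0.17, TGFBR3 from -0.91 to 0.19 and SMAD3 from -0.0330 to 0.49. INHBB was -0.0013 without array 2 of replicate 2, and TGFBR1 -0.0023 without array 4 of it. The cause of these changes was not tested beyond the arrays left out.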
